A study of Mus musculus with 2 samples.

Results

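The genes described here encode Rab and Arl small GTPases and EHD ATPases, the switches and membrane-shaping proteins of vesicle traffic. They were all rows of the deposited gene table whose symbol is Rab or Arl with a number and, where present, an isoform letter, or Ehd1 to Ehd4. That gave 83 of 46095 genes, namely 59 Rab, 20 Arl and 4 EHD genes. RNA sequencing compared bone marrow-derived macrophages of 2 genotypes with 1 library each. The KO library was labelled TIPE1-/- and, by the series' design, came from mice with floxed Tipe1 alleles and LyzM-Cre, which drives Cre recombinase from the lysozyme locus in myeloid cells. The WT library was labelled wild type and, by the same design text, came from Tipe1f/f mice without Cre. Both were C57BL/6 macrophage cultures kept for 5 days in DMEM with 100 ng/ml M-CSF, the growth factor that turns marrow progenitors into macrophages, and the labels give no age or number of mice. The series' title names the control of macrophage polarization by TIPE1 as the subject.

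A Rab protein is delivered to a membrane by its lipid anchor, is switched on by an exchange factor (GEF) that loads GTP, recruits effectors that tether, move or fuse vesicles, and is switched off by a GTPase-activating protein (GAP). Different Rabs mark different compartments, so that Rab5 proteins label early endosomes and Rab7 late endosomes and phagolysosomes. Arl proteins are relatives of the Arf GTPases and act at the Golgi, lysosome, cilium and plasma membrane. EHD proteins are ATPases that form rings on curved membranes: EHD1, EHD3 and EHD4 work on endosomal tubules that return receptors to the cell surface, and EHD2 sits at the neck of caveolae. Macrophages depend on this machinery for phagosome maturation, receptor recycling and secretion.

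The KO library held 15815956 counted reads and the WT library 11782664. Counts were scaled to reads per 1000000 of the effective library size (CPM). A ratio is KO CPM over WT CPM, and the values in parentheses after it are its 95% counting interval. That interval covers counting error only. With 1 library per genotype no difference has a replicate check, and no p-value was computed. The targeted gene Tnfaip8l1, which encodes TIPE1, had 3 reads in the KO library against 21 in the WT library. Lyz2, whose locus carries the Cre allele, stood at 8028 CPM in the KO library against 14958 CPM in the WT library. Of 11 macrophage markers 8 were within the limits used below, while fibroblast and stromal markers summed to 176 CPM in the KO library against 1991 CPM in the WT library.

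Most of the Rab and Arl machinery had nearly the same level in both libraries. The differences past 1.5-fold with an interval that excluded 1 lay in 3 EHD, 2 Arl and 2 Rab genes. Genes with at least 1 CPM on average entered the comparison. Counted as higher or lower below means a ratio of at least 1.5-fold together with an interval that excludes 1. Of the 83 genes, 65 passed that filter, 14 had reads but did not pass, and 4 (Arl13a, Arl14, Rab3c and Rab9b) were listed at 0 in both libraries. Of the 65, 2 were higher in the KO library (Ehd1 and Rab19), where 6.47% of all 12495 tested genes were higher. In the other direction 5 were lower (Ehd2, Ehd3, Arl4c, Rab44 and Arl15), where 7.23% of all tested genes were lower. The 2 higher genes made up 3.08% of the 65 and the 5 lower ones 7.69%, the first share below that of all genes and the second close to it. Ehd2 and Ehd3 passed the filter only through their level in the WT library.

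The 65 genes had a median log2 ratio of -0.017, against 0.011 for all tested genes, and 32 of them lay above 0 and 33 below. Of the 65, 52 (80.0%) were within 1.3-fold, as were 72.6% of all tested genes. The middle of the distribution ran from -0.26 at the lower quartile to 0.10 at the upper quartile, against -0.18 and 0.19 for all tested genes. All 83 genes summed to 6554 CPM in the KO library against 6496 CPM in the WT library, a ratio of 1.01 (0.999 to 1.02).

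**Figure D1:**
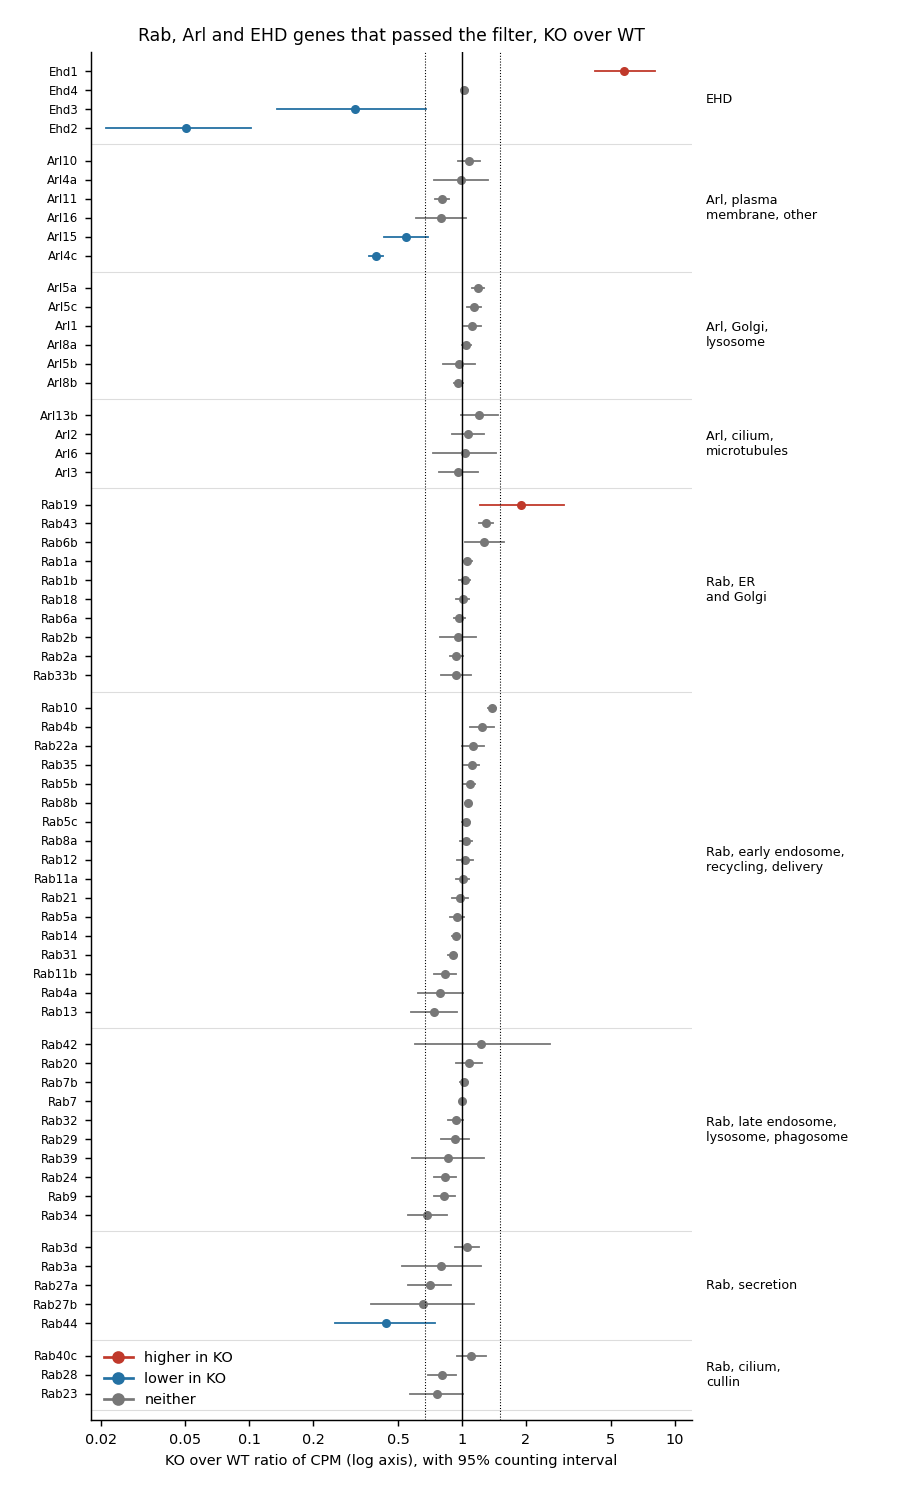
KO over WT ratio of CPM (log axis) for the 65 trafficking genes that passed the filter, grouped by role, 1 library per genotype. Points are ratios, bars are 95% counting intervals and dotted lines mark 1.5-fold; Ehd1 at 5.76 and Ehd2 at 0.050 are the extremes, while the Rab genes of the endosomal and Golgi groups cluster near 1.

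**Figure D2:**
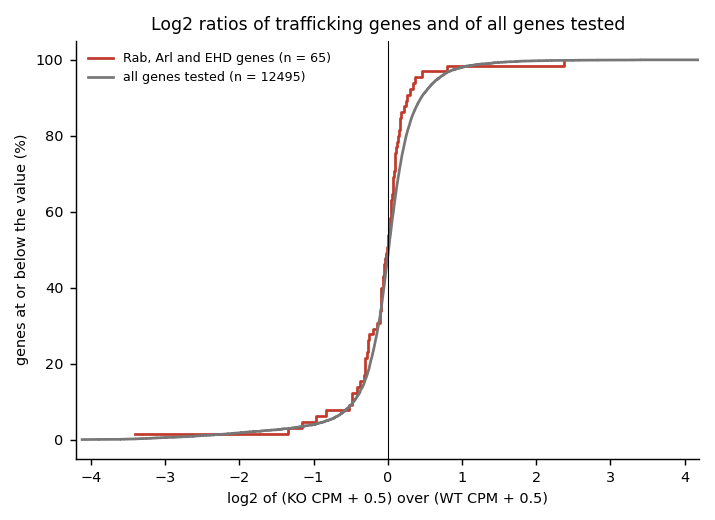
Cumulative share of genes (%) against the log2 ratio of KO over WT with 0.5 CPM added to both, for the 65 trafficking genes and for all 12495 tested genes. The curves run close together, with medians of -0.017 and 0.011, and the trafficking genes end in isolated steps, with Ehd2 at -3.41 lowest and Ehd1 at 2.38 highest.

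Of the 4 EHD genes 1 was higher, 2 were lower and 1 was level, where 6.47% of all tested genes were higher and 7.23% lower. Ehd1 (GRCm38 chromosome 19, 6276725 to 6300096), whose product drives exit of receptors from the endocytic recycling compartment, had 331 reads or 21.5 CPM in the KO library against 45 reads or 3.73 CPM in the WT library. It was 5.76-fold higher (4.21 to 8.05) in the KO library, the largest ratio among the 65 genes. Ehd2 (chromosome 7, 15946958 to 15967567), which encodes the caveolar EHD protein, had 8 reads or 0.519 CPM in the KO library against 125 reads or 10.3 CPM in the WT library. That made it 20.0-fold lower (9.82 to 47.3), and the intervals of Ehd1 and Ehd2 lie far apart.

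Ehd3 (chromosome 17, 73804134 to 73832094), which acts between early endosomes and the recycling compartment, had 10 reads or 0.648 CPM in the KO library against 25 reads or 2.07 CPM in the WT library. Its ratio corresponds to 3.19-fold lower (1.48 to 7.45), with an interval that spans a wide range because of the few reads. Ehd4 (chromosome 2, 120089175 to 120154606), an early endosomal member, was level at 317 CPM in the KO library against 309 CPM in the WT library, a ratio of 1.03 (0.98 to 1.07). Per length of exon Ehd4 was the main EHD gene in both libraries, at 79.0 CPM per kb in the KO library against 77.0 in the WT library, while Ehd1 stood at 5.79 (KO) against 1.01 (WT) and Ehd2 at 0.101 (KO) against 2.02 (WT) CPM per kb. The summed EHD level was nearly the same, at 339 CPM in the KO library against 325 CPM in the WT library. Within that sum Ehd1 made up 6.32% of reads (exact binomial interval 5.68 to 7.02) in the KO library against 1.15% (0.84 to 1.53) in the WT library, whereas Ehd2 made up 0.153% (0.066 to 0.301) in the KO library against 3.19% (2.66 to 3.79) in the WT library.

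Most tested genes of caveolae and of stromal cells were lower in the KO library, as Ehd2 was. Of 7 caveolar coat genes listed 4 passed the filter, with 3 of those lower and 0 higher in the KO library. Cav1, which encodes the main caveolin, stood at 16.4 CPM in the KO library against 45.3 CPM in the WT library, 2.76-fold lower (2.38 to 3.22). Ptrf, which encodes cavin 1, stood at 1.94 CPM in the KO library against 9.77 CPM in the WT library, 5.02-fold lower (3.34 to 7.77). Sdpr, which encodes cavin 2, was lower as well, at 11 reads in the KO library against 28 in the WT library, and passed the filter only through the WT library. Cav2, a partner of caveolin 1, was not counted in either direction, at 74.1 CPM in the KO library against 68.1 CPM in the WT library.

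Of 15 tested fibroblast and stromal markers 14 were in the lower class and 0 in the higher one. The largest fall among them was that of Acta2, the smooth muscle actin gene, at 17.9-fold lower (13.2 to 24.8), against 20.0-fold for Ehd2. Cxcl12, one of the 14, passed the filter only through the WT library. Col1a1 stood at 58.9 CPM in the KO library against 714 CPM in the WT library, Col5a1 at 6.48 (KO) against 97.0 CPM (WT) and Acta2 at 2.92 (KO) against 52.2 CPM (WT). Thy1 had 3.11 CPM in the KO library against 3.23 CPM in the WT library, and Tagln was listed at 0 in both. Of 4 tested endothelial markers 1 was higher (Vwf) and 1 lower (Cdh5). The 6 listed endothelial markers summed to 55.4 CPM in the KO library against 50.1 CPM in the WT library. In bulk RNA fewer cells of a type and less RNA per cell cannot be told apart. The part of stromal or endothelial cells in the values of Ehd2, Ehd3 and the other lower genes was not tested.

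**Figure D3:**
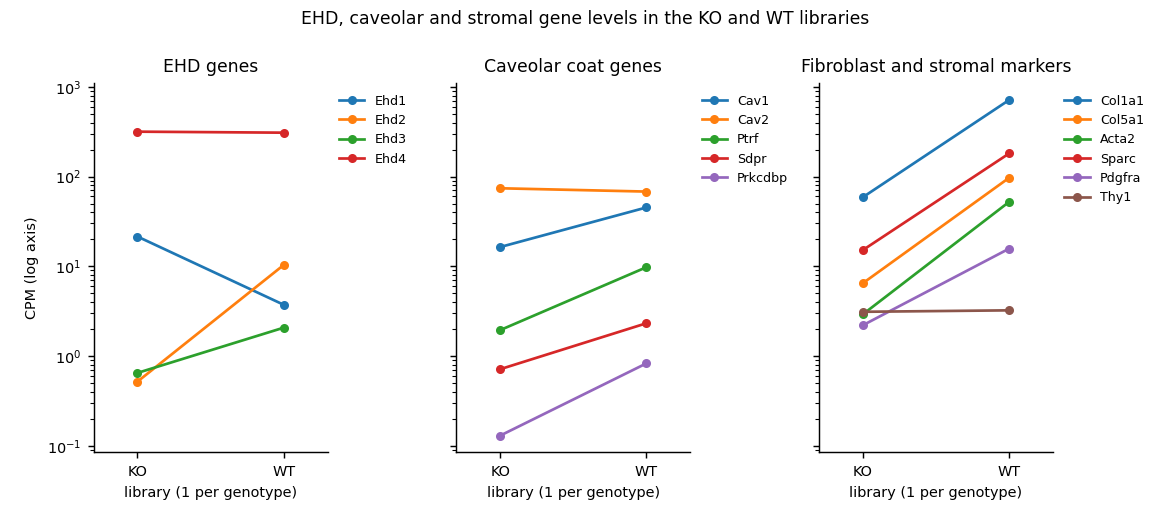
CPM (log axis) of the 4 EHD genes, 5 caveolar coat genes and 6 of the fibroblast and stromal markers in the KO and WT libraries, 1 library each, lines joining the values of a gene. Ehd1 is higher in the KO library at 21.5 CPM, against 3.73 CPM in the WT library, and Ehd4 is level, while Ehd2, Cav1, Ptrf, Sdpr and the stromal genes other than Thy1 are higher in the WT library.

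Arl4c was the lower gene with the most reads. Arl4c (chromosome 1, 88673125 to 88702221), a plasma membrane GTPase that is a target of the oxysterol receptor LXR in macrophages, had 974 reads or 63.1 CPM in the KO library against 1938 reads or 160 CPM in the WT library. It was 2.54-fold lower (2.35 to 2.75). Its relative Arl4a was level at 7.19 CPM in the KO library against 7.29 CPM in the WT library, and Arl4d had 9 reads in each. Arl4c made up 89.0% (87.0 to 90.8) of Arl4 reads in the KO library, against 95.2% (94.2 to 96.1) in the WT library. Per kb of exon it ranked 35 of 65 genes in the KO library and 20 of 65 in the WT library.

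Arl15 (chromosome 13, 113794505 to 114157461), a gene linked to adiponectin levels in human genetic studies, had 124 reads or 8.04 CPM in the KO library against 178 reads or 14.7 CPM in the WT library. It was 1.83-fold lower (1.45 to 2.33). Rab44 (chromosome 17, 29114145 to 29148980), an unusually large Rab found on granules of mast cells, had 23 reads or 1.49 CPM in the KO library against 41 reads or 3.39 CPM in the WT library. That was 2.28-fold lower (1.33 to 3.98). Both intervals reach below 1.5-fold, so the size of these falls is not resolved from a smaller one.

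Rab19 (chromosome 6, 39381175 to 39390380), a Golgi Rab, had 70 reads or 4.54 CPM in the KO library against 29 reads or 2.40 CPM in the WT library. It was 1.89-fold higher (1.21 to 3.02) in the KO library, an interval that also includes values under 1.5-fold. Ehd1 was the only member at least 2-fold higher, where 2.59% of all tested genes were at least 2-fold higher with an interval that excluded 1. Ehd2, Ehd3, Arl4c and Rab44 were at least 2-fold lower, 6.15% of the 65 genes, where 4.78% of all tested genes were. Among the marker lists, osteoclast genes were mostly higher, as Ehd1 and Rab19 were, with 4 of 6 tested ones higher and 0 lower. Of those 4, Dcstamp passed the filter only through the KO library. The other tested ones, Ctsk and Nfatc1, had ratios of 0.79 (0.68 to 0.91) and 0.81 (0.75 to 0.88). Mmp9 stood at 732 CPM in the KO library against 126 CPM in the WT library, and the 9 listed osteoclast genes summed to 1328 CPM (KO) against 543 CPM (WT), with Calcr at 0 in both. T and NK cell markers had 2 of 5 tested ones higher and 0 lower, at a sum of 36.75 CPM (KO) against 25.004 CPM (WT), with Trac at 0 in both. The higher ones were Cd8a and Cd4, and Cd4 alone had 27.6 CPM (KO) against 17.6 CPM (WT). Cd3e at 0.78 (0.40 to 1.53), Cd3g at 0.99 (0.48 to 2.10) and Nkg7 at 1.20 (0.57 to 2.63) had intervals that include 1. Of the B cell genes 5 of 5 tested ones were lower, but Ms4a1, Cd79a, Pax5 and Ebf1 passed the filter only through the WT library. The 7 listed B cell genes stood at a sum of 2.66 CPM (KO) against 14.7 CPM (WT). The part of these cells in the values of the trafficking genes was not tested.

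The promoters of 4 of these genes are shown because they belong to the genes with the largest falls (Ehd2, Ehd3 and Arl4c) and to Rab19, whose window holds an interferon-type motif. Each window of 300 bases spans the start of the gene in RefSeq (GRCm38.p6), on the strand of the gene, and capitals mark motif matches. Gene positions given above are those of GENCODE, which can place the start elsewhere. By GENCODE, Ehd3 starts at 73804134, so its window lies wholly inside the gene. Rab19 starts at 39381175 by GENCODE, so both marked matches lie downstream of that start. Ehd2 is chr7:15967486-15967785 on the minus strand, Ehd3 is chr17:73804591-73804890 on the plus strand, Arl4c is chr1:88702142-88702441 on the minus strand and Rab19 is chr6:39381103-39381402 on the plus strand.
Ehd2: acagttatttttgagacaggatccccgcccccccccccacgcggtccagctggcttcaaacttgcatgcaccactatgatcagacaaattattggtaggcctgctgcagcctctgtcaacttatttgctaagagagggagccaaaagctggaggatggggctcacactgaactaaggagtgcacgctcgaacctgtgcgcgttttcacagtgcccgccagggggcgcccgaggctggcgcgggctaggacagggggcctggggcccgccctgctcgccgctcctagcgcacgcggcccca
Ehd3: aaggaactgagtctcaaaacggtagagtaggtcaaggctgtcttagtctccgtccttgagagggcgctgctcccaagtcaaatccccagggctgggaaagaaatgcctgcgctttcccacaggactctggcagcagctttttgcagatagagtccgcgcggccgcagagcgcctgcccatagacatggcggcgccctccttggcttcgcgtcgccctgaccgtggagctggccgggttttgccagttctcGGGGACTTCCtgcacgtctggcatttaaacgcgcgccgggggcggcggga
Arl4c: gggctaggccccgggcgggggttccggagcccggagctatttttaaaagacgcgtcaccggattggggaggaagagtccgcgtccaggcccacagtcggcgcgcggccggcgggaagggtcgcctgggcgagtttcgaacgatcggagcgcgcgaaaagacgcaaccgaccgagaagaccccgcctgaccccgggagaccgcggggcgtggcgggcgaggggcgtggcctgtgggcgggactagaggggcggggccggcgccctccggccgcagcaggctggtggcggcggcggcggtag
Rab19: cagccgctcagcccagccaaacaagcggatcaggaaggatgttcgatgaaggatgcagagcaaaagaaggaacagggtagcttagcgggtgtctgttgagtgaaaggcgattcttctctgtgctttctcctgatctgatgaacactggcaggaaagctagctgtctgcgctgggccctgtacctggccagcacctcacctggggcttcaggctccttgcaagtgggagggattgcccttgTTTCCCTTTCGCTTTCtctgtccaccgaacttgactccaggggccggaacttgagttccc

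Motifs searched on both strands were the NF-kB consensus, the interferon-stimulated response element (GAAA, any 2 bases, GAAA), AP-1 (TGANTCA), TEAD (GGAATG), the E-box CACGTG and the CArG box. Rab19 held 2 overlapping matches to the interferon-type motif on the minus strand, starting at positions 241 and 247 of the window. Of 27025 genes with a promoter 3.99% held at least 1 in any of their windows, as did 3.44% of all 32851 windows. Ehd3 held a match to the NF-kB consensus at position 251, as 9.55% of all genes did in any of their windows and 8.46% of all windows did. All gene shares below count a match in any window of a gene. No motif matched in the windows of Ehd2, Arl4c and Arl15, and no window was matched for Ehd1 and Rab44. Promoters were matched for 68 of the 83 genes and for 56 of the 65 tested ones. Of those 56, 9 (16.1%) held the E-box, namely Arl2, Arl3, Arl5b, Rab5a, Rab20, Rab21, Rab23, Rab24 and Rab27a, none of which was counted as higher or lower. The E-box share was 13.2% over the 68 members and 8.09% over all genes with a promoter, which include genes that did not pass the filter. Shares of the 56 were below those of all genes for TEAD (10.7% against 16.6%), AP-1 (3.57% against 8.97%) and NF-kB (7.14% against 9.55%). The interferon-type motif (3.57% against 3.99%) and the CArG box (1.79% against 1.81%) were close to all genes. A match describes the letters only.

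Rabs of the early endosome, of recycling and of delivery to the plasma membrane were the largest group, and none of the 17 tested genes was counted in either direction. Among all 12495 tested genes 10783 were counted in neither direction. Their reads summed to 2752 CPM in the KO library against 2638 CPM in the WT library. Rab8b, which guides exocytic vesicles to the cell surface, stood at 596 CPM in the KO library against 559 CPM in the WT library, a ratio of 1.07 (1.03 to 1.10). Rab14, found on recycling endosomes and young phagosomes, stood at 347 CPM in the KO library against 371 CPM in the WT library, a ratio of 0.93 (0.90 to 0.97). Both intervals exclude 1, and the differences are small against the 1.5-fold limit. With scaling by total counts the ratios were 1.01 for Rab8b and 0.89 for Rab14. Of the 17 genes 6 (35.3%) had intervals above 1 and 4 (23.5%) below 1. Among all tested genes the shares were 22.8% and 18.4%.

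The early endosomal Rab5 genes differed little in their sum and proportions. Rab5c, the most abundant of them per kb, stood at 352 CPM in the KO library against 337 CPM in the WT library, Rab5b at 167 (KO) against 153 CPM (WT) and Rab5a at 97.2 (KO) against 103 CPM (WT). Together they had 616 CPM in the KO library against 594 CPM in the WT library, a ratio of 1.04 (1.01 to 1.07). Rab5c made up 57.1% of Rab5 reads in the KO library against 56.7% in the WT library.

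Rab10 had the largest ratio of the group, though under 1.5-fold. Rab10, which in mouse macrophages helps carry TLR4 to the surface, had 4864 reads or 315 CPM in the KO library against 2756 reads or 228 CPM in the WT library. The ratio was 1.38 (1.32 to 1.45), with reads enough to set it apart from 1 but not above the limit. Per kb it ranked 5 of 65 in the KO library at 89.7 CPM per kb and 9 of 65 in the WT library at 65.0 CPM per kb. Rab10os, an antisense gene that overlaps 143 bases of Rab10 exons, had 138 reads in the KO library against 79 in the WT library. Its reads cannot be told apart from those of Rab10 in the overlap, since the strand setting is not given, but they are few beside those of Rab10.

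The proportions of the fast recycling genes Rab4a and Rab4b differed between the libraries, although neither gene reached 1.5-fold. Rab4b stood at 38.0 CPM in the KO library against 30.7 CPM in the WT library, a ratio of 1.24 (1.09 to 1.41), and Rab4a at 8.94 CPM in the KO library against 11.3 CPM in the WT library, a ratio of 0.79 (0.62 to 1.01). Rab4a made up 19.0% (16.2 to 22.1) of Rab4 reads in the KO library against 27.0% (23.1 to 31.1) in the WT library. These intervals do not overlap, but 58.1% of the 50-base stretches of Rab4b transcripts are shared with other annotated genes, chiefly the read-through gene Gm21983, so Rab4b is uncertain. Rab11a and Rab11b, of the recycling endosome, gave ratios of 1.01 (0.94 to 1.08) and 0.83 (0.74 to 0.93). Rab11b shares 9.47% of its 50-base stretches with other genes, mainly Rab11b-ps2, which had 497 reads in the KO library against 410 in the WT library, and is uncertain too.

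The other genes of the group ran from Rab13, of cell junctions, at 0.74 (0.58 to 0.94) to Rab22a, of recycling tubules, at 1.12 (0.998 to 1.27). Rab31, which acts between the Golgi and endosomes, stood at 232 CPM in the KO library against 256 CPM in the WT library, a ratio of 0.91 (0.86 to 0.95). Rab35, of a fast recycling route, had a ratio of 1.11 (1.02 to 1.21), and Rab8a, Rab12 and Rab21 lay between 0.98 and 1.04.

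Rabs of the late endosome, lysosome and phagosome had nearly the same summed level. Of 13 genes 10 passed the filter and none was counted in either direction, where 6.47% of all tested genes were higher and 7.23% lower. The group summed to 1258 CPM in the KO library against 1276 CPM in the WT library. Rab7, the Rab of fusion with lysosomes, had 11488 reads or 745 CPM in the KO library against 8952 reads or 741 CPM in the WT library. Its ratio was 1.005 (0.977 to 1.03), the narrowest interval of the 65 genes. Per kb Rab7 was the most abundant member in both libraries, at 285 CPM per kb in the KO library against 284 in the WT library. Rab7b, its relative in macrophages, stood at 285 CPM in the KO library against 279 CPM in the WT library. Rab7 shares 11.2% of its 50-base stretches with other genes, mainly Rab7-ps1, which had 287 reads in the KO library against 213 in the WT library.

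Several less abundant members of that group had ratios under 1 with intervals that excluded 1, while staying within 1.5-fold. Rab34, which positions lysosomes and serves cilium formation, had 11.0 CPM in the KO library against 16.1 CPM in the WT library, a ratio of 0.686 (0.555 to 0.847). Rab9, of transport from late endosomes to the Golgi, had a ratio of 0.83 (0.74 to 0.92) and Rab24, linked to autophagy, one of 0.83 (0.74 to 0.94). Rab24 lies over Prelid1 on the other strand along 62.4% of its exon bases, and Prelid1 had 2299 reads in the KO library against 1888 in the WT library, so Rab24 is uncertain. Rab32, of lysosome-related organelles, and Rab20, found on phagosomes, had ratios of 0.93 (0.86 to 1.01) and 1.07 (0.93 to 1.24). Rab39b did not pass the filter, with 2 reads in the KO library against 10 in the WT library.

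**Figure D4:**
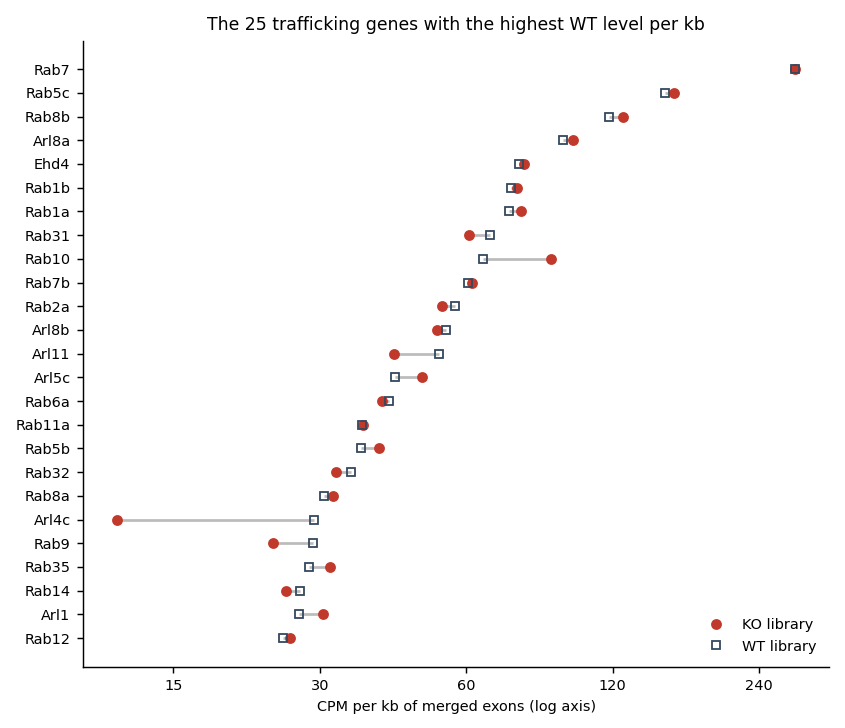
CPM per kb of merged exons (log axis) in the KO and WT libraries for the 25 tested trafficking genes with the highest WT value, 1 library per genotype. Rab7 leads at 285 in the KO library against 284 in the WT library, and Arl4c and Rab10 show the widest gaps, with Arl4c below and Rab10 above on the KO side.

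Among Rabs of the ER and Golgi only Rab19 was counted. Of 13 genes 10 passed the filter, and 1 (10%) of those was higher and 0 lower, against 6.47% and 7.23% of all tested genes. The group summed to 1026 CPM in the KO library against 986 CPM in the WT library. Rab1a, of transport from the ER to the Golgi, stood at 296 CPM in the KO library against 279 CPM in the WT library, and its close relative Rab1b at 174 CPM in KO against 168 CPM in WT. Rab2a, Rab6a and Rab18, which serves lipid droplets as well, had ratios of 0.94 (0.87 to 1.01), 0.97 (0.91 to 1.03) and 1.01 (0.94 to 1.08). Rab43, of the Golgi, had a ratio of 1.29 (1.20 to 1.39), at 120 CPM in the KO library against 92.8 CPM in the WT library. Of its 50-base stretches 74.5% are shared with the read-through gene Gm45140, so this value is uncertain. Rab30 did not pass the filter, with 2 reads in the KO library against 13 in the WT library.

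Rabs of regulated secretion summed to 51.9 CPM in the KO library against 57.3 CPM in the WT library. Of the 5 tested ones 4 had a log2 ratio below 0, as did 6028 of all 12495 tested genes. Of those 4, Rab3a at 0.80 (0.52 to 1.23) and Rab27b at 0.66 (0.37 to 1.14) had intervals that include 1. Only Rab44 of the 5 was counted as lower, where 7.23% of all tested genes were. Rab27a, which docks secretory granules and exosome-bearing endosomes, had 141 reads in the KO library against 157 in the WT library, a ratio of 0.70 (0.56 to 0.89). Rab3d, a granule Rab, was the most abundant of the group per kb and level, at 35.9 CPM in the KO library against 34.1 CPM in the WT library. The neutrophil and monocyte markers summed to 899 and 412 CPM in the KO library against 1201 and 1141 CPM in the WT library. Of 13 tested neutrophil markers 5 were lower and 0 higher, and of 8 monocyte markers 5 were lower and 0 higher. Mast cell and basophil markers summed to 4.99 CPM in the KO library against 6.04 CPM in the WT library, and none of their 2 tested genes was counted. The part of these cells in the values of Rab27a and Rab44 was not tested.

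The remaining Rabs were those of the cilium and of ubiquitin ligases. Rab28, of the cilium, stood at 22.5 CPM in the KO library against 28.0 CPM in the WT library, a ratio of 0.80 (0.69 to 0.94). Rab40c, which joins a cullin ubiquitin ligase, stood at 25.7 (KO) against 23.3 CPM (WT) and Rab23, an inhibitor of Hedgehog signalling, at 6.42 (KO) against 8.45 CPM (WT). None of the 3 was counted, and neither were 10783 of all 12495 tested genes.

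Arl genes of the Golgi and lysosome stayed within 1.3-fold, all 6 of them. Arl8a and Arl8b, which couple lysosomes to kinesin motors, stood at 229 and 234 CPM in the KO library against 218 and 245 CPM in the WT library. Their sum was 463 CPM in both libraries, a ratio of 0.999 (0.965 to 1.04). The Golgi genes Arl5a, Arl5c and Arl1 had ratios of 1.19 (1.11 to 1.27), 1.14 (1.05 to 1.23) and 1.12 (1.02 to 1.23). These 3 intervals lie above 1, and the summed Arl5 level was 258 CPM in the KO library against 225 CPM in the WT library.

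None of the 4 tested ciliary and microtubule Arl genes was counted in either direction, and neither were 10783 of all 12495 tested genes. Arl2, which acts in tubulin folding, stood at 20.2 CPM in the KO library against 18.9 CPM in the WT library, and Arl13b, a ciliary GTPase, at 17.2 (KO) against 14.2 CPM (WT). Arl3, which releases lipid-anchored cargo in the cilium, and Arl6, a partner of the BBSome coat, had ratios of 0.96 (0.78 to 1.19) and 1.03 (0.73 to 1.45). Arl11, which promotes ERK signalling in mouse macrophages, stayed within 1.3-fold with an interval under 1, at 92.9 CPM in the KO library against 115 CPM in the WT library, a ratio of 0.81 (0.75 to 0.87). Its group, Arl genes of the plasma membrane and other Arl genes, summed to 224 CPM (KO) against 349 CPM (WT), a ratio of 0.64 (0.61 to 0.67). Of 6 tested genes in that group 2 (33.3%), Arl4c and Arl15, were lower and 0 higher, against 7.23% and 6.47% of all tested genes. Arl10 and Arl16 of that group had ratios of 1.08 (0.96 to 1.21) and 0.80 (0.61 to 1.05).

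**Figure D5:**
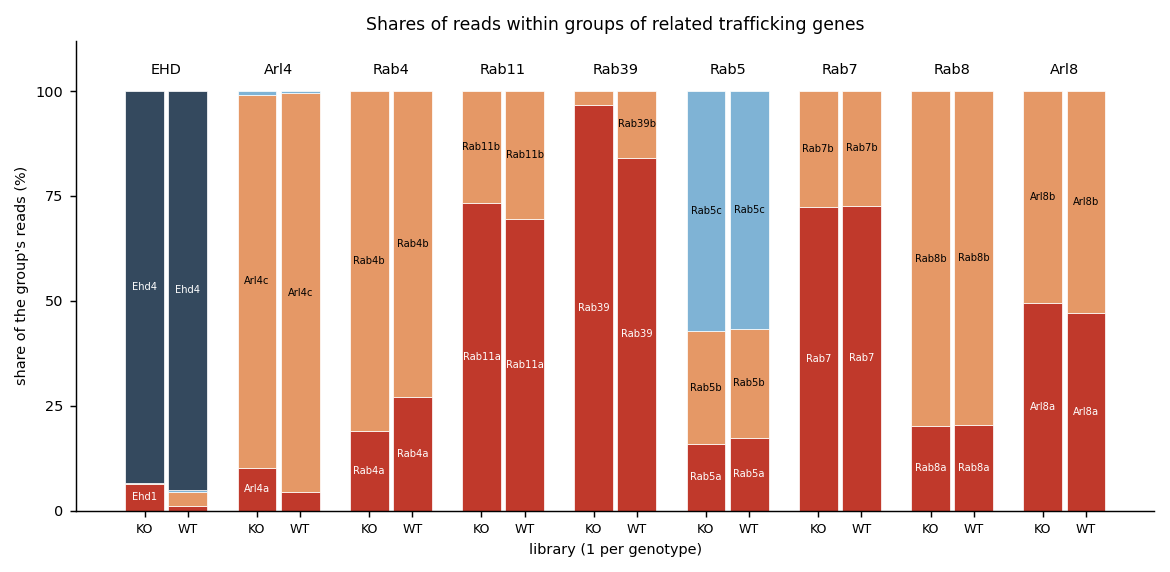
Share of reads (%) that each gene takes within 9 groups of related trafficking genes, KO bar left of the WT bar, 1 library per genotype. Ehd1 takes 6.32% of EHD reads in the KO library against 1.15% in the WT library and Rab4a takes 19.0% of Rab4 reads in KO against 27.0% in WT, while the bars of the Rab5, Rab7 and Rab8 groups stay close to each other.

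Members under the filter had few reads in both libraries. Of the 14 with reads, Rab30 and Rab39b had intervals that excluded 1, with ratios of 0.12 (0.013 to 0.53) and 0.16 (0.017 to 0.73). The other 12 had at most 10 reads in either library, among them the epithelial genes Rab17 and Rab25 with 1 and 2 reads in the KO library against 0 in WT, and the neuronal Rab3b with 0 in the KO library against 2 in WT. At this depth no direction can be read for them.

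Most enzymes and partners that serve Rabs were counted in neither direction, as were 10783 of all 12495 tested genes. None of the 12 genes for membrane delivery and extraction of Rabs and of 12 HOPS, CORVET and retromer genes was counted, nor any of 33 tested Rab GAP genes or 14 Arf and Sar genes and their partners. The GAP gene nearest to the limit was Tbc1d9, at 146 CPM in the KO library against 218 CPM in the WT library, a ratio of 0.67 (0.63 to 0.71). Of 32 tested Rab GEF genes 1 (3.1%) was higher and 2 (6.25%) lower, against 6.47% and 7.23% of all tested genes. Dennd2a, which encodes a GEF of Rab9, was 1.85-fold higher (1.58 to 2.17), at 35.2 CPM in the KO library against 19.0 CPM in the WT library. The lower ones, Rin1, a GEF of Rab5, and St5, had 15 reads each in the KO library against 40 and 55 in the WT library, and both passed the filter only through the WT library.

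Of 35 tested Rab effectors and tethers 1 (2.86%) was higher and 4 (11.4%) lower, against 6.47% and 7.23% of all tested genes. Rilpl2, an effector that binds Rabs phosphorylated by LRRK2, was 1.64-fold higher (1.53 to 1.75), at 168 CPM in the KO library against 103 CPM in the WT library. The lower ones (Plekhf1, Sytl2, Gcc2 and Ccdc64) had between 9 and 19 reads in the KO library and between 30 and 45 in the WT library, and Plekhf1 and Gcc2 passed the filter only through the WT library. Of 15 tested EHD partners 1 (6.67%) was lower and 0 higher. Reps2, an EH-domain adaptor of endocytosis, stood at 24.0 CPM in the KO library against 44.2 CPM in the WT library, 1.84-fold lower (1.61 to 2.11), while its relative Reps1 had a ratio of 1.27 (1.12 to 1.45). Micall1, which recruits EHD1 to recycling tubules, had a ratio of 1.20 (1.07 to 1.34).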

How the data were processed

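RNA was sequenced from 1 library per genotype. The authors deposited raw read counts per gene symbol in 1 table whose columns name the libraries, per the file headers. Per the submitters' processing notes, HISAT2 and the GRCm38 assembly were used. How reads were assigned to genes, with which annotation and strand rule, is not given in the sources used here. Overlapping and near-identical genes can therefore take each other's reads.

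TMM in edgeR 4.0.16 (R 4.3.3) gave effective library sizes, from which CPM were computed. Each ratio has an exact 95% interval by Clopper-Pearson, taken on the share of a gene's reads in the KO library (scipy 1.17.1). Log2 ratios used 0.5 CPM added to both values, which understates the change of low genes. Of 46095 genes, 12495 had at least 1 CPM on average. A count of 3 reads equals 0.194 CPM in the KO library and 0.248 CPM in WT. No molecular identifiers are mentioned, so reads may share a molecule, and intervals cover counting error only. No residual degrees of freedom exist and no p-value was computed. The calculation was tested on simulated data.

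Exon lengths, positions, overlaps and shared 50-base stretches came from GENCODE vM21 (GRCm38), in which all 83 symbols matched, and promoters from RefSeq. The annotation the authors counted on may differ, so levels per kb are approximate. Named by rule were the EHD genes, every member counted as higher or lower, the 2 members with the highest mean CPM per role, and up to 3 genes per list averaging at least 5 CPM. Other genes are examples chosen after their values were seen. The members and lists were chosen with earlier results of these data known.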

Additional observations from a re-analysis of the deposited data

How the results depend on the processing

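Scaling by total counts or by DESeq2 size factors (DESeq2 1.42.0), no filter, a filter at 10 CPM on average, a 2-fold limit and 2 CPM added were all planned. The members counted as higher numbered 2, and 1 with the 10 CPM filter and 1 at the 2-fold limit, Ehd1 in each case. Those counted as lower numbered 5, and 2 (Arl4c and Arl15) with the 10 CPM filter, where fewer genes were tested and Ehd2, Ehd3 and Rab44 did not pass. Without a filter 7 were lower, Rab30 and Rab39b being added. With total counts 6 were lower, Rab34 being added, and the median log2 ratio of all tested genes moved to -0.059 and that of the members to -0.084. The members' median was -0.017 by TMM and 0.0095 with the 10 CPM filter, close to 0 in each setting. Of 46 recomputed ratios of named members under the other 2 scalings, 7 moved out of their counting interval, all of them with total counts and all between 0.89 and 1.01. With the 10 CPM filter 4.92% of all genes were higher and 2.66% lower, against 1.89% and 3.77% of the 53 members. Low read numbers limit Ehd2, Ehd3, Rab19 and Rab44. No paired analysis was possible because there was only 1 KO library and 1 WT library.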
